A study of Mus musculus with 9 samples.

Results

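Expression of 10 genes for the uptake, storage and synthesis of retinoids was examined among 19938 genes measured in fetal mouse urogenital sinus (UGS) mesenchymal cells, the connective tissue precursors of the prostate. The genes, Stra6, Lrat, Adh1, Rdh10, Dhrs3, Aldh1a1, Aldh1a2, Aldh1a3, Crabp1 and Crabp2, were chosen by their measured difference between 100 pM estradiol-17β (E2) and vehicle, in which several of them were lower, so that difference is a description and not a test. All 10 were measured, each by 1 probeset. The cells came from male CD-1 fetuses on gestation day 17 and were used at first passage, after the epithelial cells had settled out by gravity. Cells of every group were kept for 3 days in medium with charcoal-stripped serum and 690 pM 5α-dihydrotestosterone (DHT), an androgen, and then received 0.05% ethanol vehicle, 10 pM E2 or 100 pM E2 for 4 days with DHT still present. Each group had 3 arrays, 9 in all, and the labels name no retinoid among the additions to the medium. The study's methods describe 3 replicate samples for each treatment but do not say whether these came from separate cell preparations or litters, so the p-values cover the spread among these samples alone, part of which may be technical.

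Retinoids are vitamin A (retinol) and its products. Stra6 is a membrane receptor that takes up retinol from its carrier in blood, and Lrat esterifies retinol for storage. Retinol is oxidized reversibly to retinal by alcohol and retinol dehydrogenases such as Adh1 and Rdh10, while Dhrs3 reduces retinal back to retinol. The retinaldehyde dehydrogenases Aldh1a1, Aldh1a2 and Aldh1a3 make retinoic acid, the ligand of the nuclear receptors RAR, and Crabp1 and Crabp2 bind retinoic acid in the cytoplasm. Retinoic acid made in UGS mesenchyme takes part in prostate and urogenital tract development, and Stra6, Lrat, Dhrs3 and Crabp2 are themselves known to respond to retinoic acid in several cell types.

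Array medians lay between 6.17 and 6.20 on the log2 scale, and arrays correlated across genes with r between 0.996 and 0.998. On the first principal component, which held 26.7% of the variance, the second 100 pM array lay farthest out at 13.3, against 8.46 and 5.70 for the other 100 pM arrays. Pgr encodes the progesterone receptor and is known to be induced by estrogen. Its log2 expression was between 6.57 and 6.84 in vehicle, 7.04 and 7.27 at 10 pM and 7.55 and 7.90 at 100 pM. Esr1, which encodes estrogen receptor α, lay between 7.44 and 7.49 in vehicle, 7.54 and 7.59 at 10 pM and 7.58 and 7.76 at 100 pM. Between 100 pM and vehicle Pgr differed by 1.04 (limma, adjusted p = 0.0036). Esr1 differed by 0.21 and did not pass the threshold of 0.05 (adjusted p = 0.0997). Values of different genes come from different probes, so levels serve only to mark dim genes, and only differences within a gene are compared.

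In cells exposed to 100 pM E2, genes from uptake through storage to oxidation were lower than in vehicle. Expression fell for 6 of the 10 genes, namely Adh1, Lrat, Stra6, Rdh10, Aldh1a1 and Dhrs3, to between 53.9% and 82.9% of the vehicle level. Crabp1 rose to 141% of vehicle, and Aldh1a2, Aldh1a3 and Crabp2 were not called. Calls are a Benjamini-Hochberg adjusted p below 0.05 over all genes in limma. Over all 19938 genes, 0.687% fell and 0.446% rose in this comparison, and nothing is read from the members' share because it was what chose them.

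**Figure D1:**
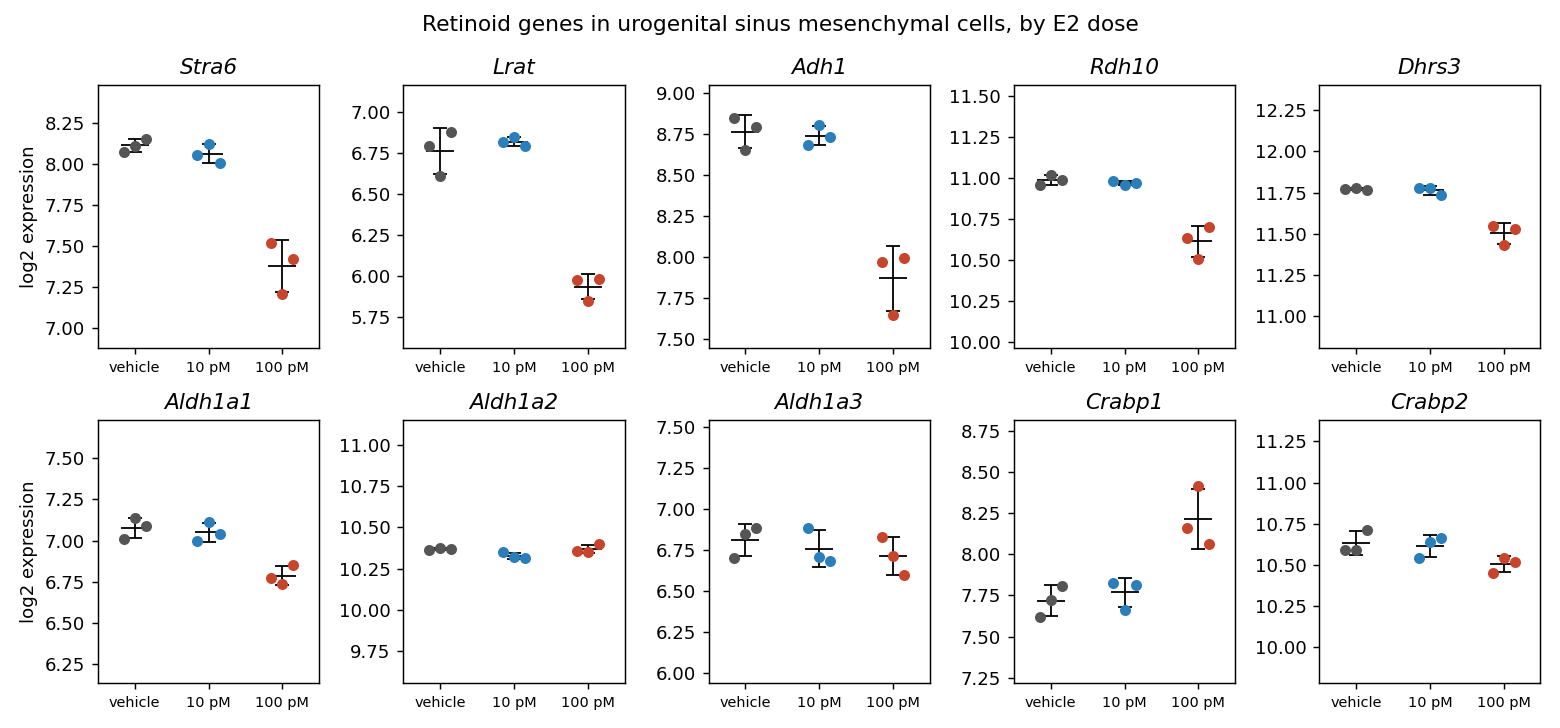
Log2 expression of 10 retinoid genes, 1 panel each, by E2 dose. A point is 1 array, the horizontal mark and whiskers give the mean and SD for n = 3, and the vertical axes have the same length but different midpoints. Adh1, Lrat, Stra6, Rdh10, Aldh1a1 and Dhrs3 were lowest and Crabp1 was highest at 100 pM, while the vehicle and 10 pM arrays of these genes overlapped.

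Among the genes for entry and storage, log2 expression of Stra6 was 8.07, 8.11 and 8.15 in vehicle, 8.06, 8.12 and 8.01 at 10 pM, and 7.52, 7.21 and 7.42 at 100 pM. All 3 arrays at 100 pM were below all 6 others, and the second was the lowest. The difference from vehicle was -0.73 ± 0.07 (SE, n = 3 arrays per group), or 60.2% of the vehicle level with a 95% interval from 53.7% to 67.5%. Expression of Lrat was 6.79, 6.61 and 6.88 in vehicle, 6.82, 6.85 and 6.79 at 10 pM, and 5.98, 5.85 and 5.98 at 100 pM. Its 100 pM arrays again lay below the others, and the difference of -0.82 ± 0.07 left 56.5% of the vehicle level (50.8% to 63.0%). Lrat was dim at 100 pM, below the array medians of 6.17 to 6.20, and the part of background in that signal was not tested.

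Of the enzymes that interconvert retinol and retinal, Adh1 had the largest fall. Its expression was 8.85, 8.65 and 8.79 in vehicle, 8.69, 8.80 and 8.73 at 10 pM, and 7.97, 7.65 and 8.00 at 100 pM. The difference was -0.89 ± 0.09, or 53.9% of vehicle (46.6% to 62.4%). Rdh10, a retinol dehydrogenase required for embryonic retinoic acid synthesis, was at 10.96, 11.02 and 10.99 in vehicle, 10.98, 10.95 and 10.97 at 10 pM, and 10.63, 10.51 and 10.70 at 100 pM. Its arrays in vehicle and at 10 pM were tightly grouped, and those at 100 pM lay below them. The difference from vehicle was -0.38 ± 0.05, leaving 77.1% of vehicle. Dhrs3, which works in the opposite direction, was also lower. Its values were 11.77, 11.78 and 11.77 in vehicle, 11.78, 11.78 and 11.73 at 10 pM, and 11.55, 11.43 and 11.53 at 100 pM, a difference of -0.27 ± 0.04 and 82.9% of vehicle.

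The retinaldehyde dehydrogenases did not move together. Expression of Aldh1a1 was 7.01, 7.13 and 7.09 in vehicle, 7.00, 7.11 and 7.04 at 10 pM, and 6.78, 6.74 and 6.85 at 100 pM, where all arrays were lower. The difference was -0.29 ± 0.05, or 81.8% of vehicle. Aldh1a2, the retinaldehyde dehydrogenase known from embryonic mesenchyme, stood at 10.36, 10.37 and 10.37 in vehicle, 10.35, 10.32 and 10.31 at 10 pM, and 10.36, 10.35 and 10.40 at 100 pM. The vehicle and 100 pM arrays overlapped, with a difference of 0.00 ± 0.03 and an interval from 95.2% to 105% of the vehicle level. Aldh1a3 lay between 6.60 and 6.89 over the 9 arrays with overlap of the groups, and differed by -0.10 ± 0.08 (82.6% to 106%). The probeset of Aldh1a7, a close paralog of Aldh1a1, differed by -0.15 (adjusted p = 0.811).

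The cytoplasmic binding proteins differed in direction. Crabp1 was at 7.62, 7.72 and 7.81 in vehicle, 7.83, 7.66 and 7.81 at 10 pM, and 8.16, 8.42 and 8.06 at 100 pM. All 100 pM arrays were above the rest, with the second the highest, and the difference was 0.50 ± 0.09, or 141% of vehicle (122% to 163%). Crabp2 was at 10.59, 10.59 and 10.71 in vehicle, 10.54, 10.64 and 10.66 at 10 pM, and 10.45, 10.54 and 10.52 at 100 pM. Its difference of -0.13 ± 0.05 was not called, although the 100 pM arrays were all below those in vehicle. The 100 pM arrays thus lay below vehicle without overlap for 7 of the 10 genes and above for 1, where 5.89% and 6.61% of all genes did so.

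In bulk RNA, fewer cells of a type and less RNA per cell cannot be told apart. The second 100 pM array was the lowest of its group for all 6 genes that fell. Without it the falls were still present, with differences of -0.78 for Adh1, -0.78 for Lrat, -0.64 for Stra6, -0.32 for Rdh10, -0.26 for Aldh1a1 and -0.23 for Dhrs3, and 0.39 for Crabp1. Of the 7 calls 5 then held, and those of Aldh1a1 and Crabp1 were lost. Leaving out any 1 vehicle array left 4 calls, Adh1, Lrat, Stra6 and Rdh10. Over all genes these fits called 40 to 51 as higher and 48 to 74 as lower, against 89 and 137 with all arrays. No member was called when only the 6 compared arrays were fitted, or in the Benjamini-Hochberg adjusted analysis of variance over all groups. Of all 19938 genes, the first called 6 as higher and 4 as lower, and 1 passed the second. Calls thus became fewer over all genes and not only among the members. The Crabp1 call was kept without the third 100 pM array and was lost without any 1 of the other arrays. That of Aldh1a1 was kept without the third 100 pM or the second 10 pM array and lost without any 1 of the rest.

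Whether the lower dose of E2 moved these genes was asked by setting 10 pM against vehicle. This used 10 pM arrays that did not choose the genes, but it shares the vehicle arrays with the comparison that did. Limma called 0 of the 10 genes (adjusted p = 1.0 for each) and 0.0% of all genes, and 0 of the 10 had an unadjusted p below 0.05, against 3.54% of all genes. Differences ran from -0.05 for Aldh1a3 to 0.06 for Lrat, with SE between 0.03 and 0.09. In percent of vehicle, the 95% intervals were 86.1% to 108% for Stra6, 93.5% to 116% for Lrat, 85.0% to 114% for Adh1 and 93.4% to 106% for Dhrs3. A change within these bounds is not excluded by these arrays. Aldh1a2 was the 1 gene whose 10 pM arrays did not overlap those of vehicle, by -0.04 ± 0.03, where 2.19% of all genes lay lower in this way, and 0 of the 10 lay higher without overlap (3.74% of all genes).

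**Figure D2:**
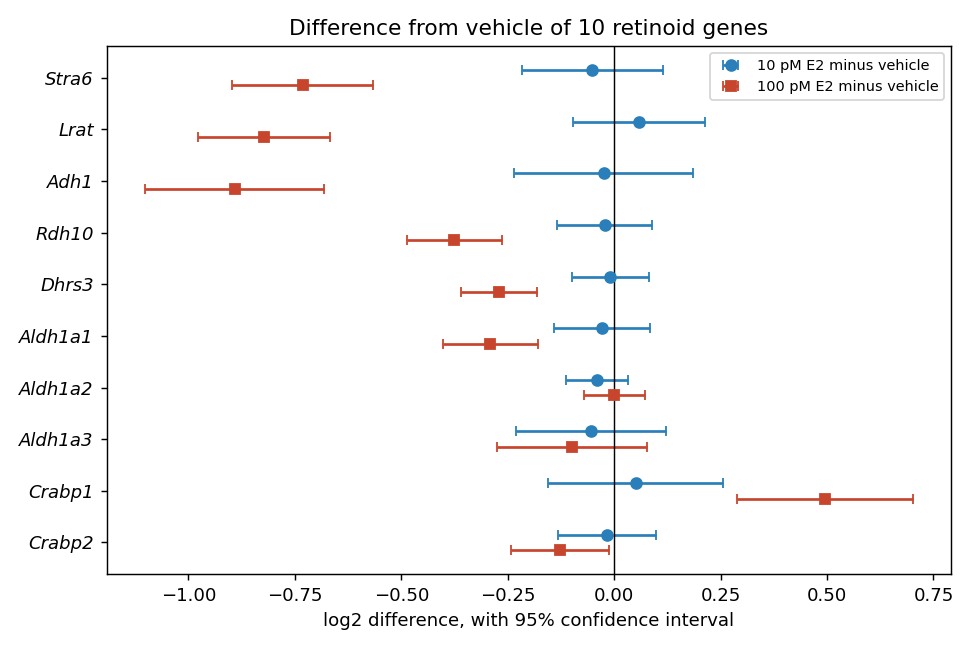
Log2 difference from vehicle of 10 retinoid genes at 10 pM (circles) and 100 pM E2 (squares), with 95% confidence intervals from the limma fit of 9 arrays. Intervals at 10 pM all include 0, while at 100 pM Adh1, Lrat and Stra6 lie at -0.89, -0.82 and -0.73 and Crabp1 at 0.50.

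Set against 10 pM E2, which shares the 100 pM arrays that chose the genes, 100 pM E2 gave differences of -0.88 ± 0.07 for Lrat, -0.87 ± 0.09 for Adh1, -0.68 ± 0.07 for Stra6, -0.35 ± 0.05 for Rdh10 and -0.26 ± 0.04 for Dhrs3. These 5 were called as lower and 0 as higher, beside 0.607% and 0.226% of all genes. Aldh1a1 (-0.26 ± 0.05) and Crabp1 (0.45 ± 0.09) did not pass the threshold, although their arrays did not overlap. In all, 6 genes were lower and 2 higher without overlap (6.42% and 5.89% of all genes), the second of the higher being Aldh1a2 with 0.04 ± 0.03. Leaving out any 1 of the 10 pM arrays left 3 calls, Adh1, Lrat and Stra6. Over all genes these fits called 6 to 11 as higher and 24 to 29 as lower, against 45 and 121 with all arrays.

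Lrat, Adh1 and Crabp1 each have 1 annotated start in RefSeq (GRCm38.p6), and the sequence from 250 bases before to 50 after it is shown because these genes include the largest falls and the 1 rise. Capitals mark CCAAT and GGGCGG on either strand.
Lrat, chr3:82903925-82904224, minus strand: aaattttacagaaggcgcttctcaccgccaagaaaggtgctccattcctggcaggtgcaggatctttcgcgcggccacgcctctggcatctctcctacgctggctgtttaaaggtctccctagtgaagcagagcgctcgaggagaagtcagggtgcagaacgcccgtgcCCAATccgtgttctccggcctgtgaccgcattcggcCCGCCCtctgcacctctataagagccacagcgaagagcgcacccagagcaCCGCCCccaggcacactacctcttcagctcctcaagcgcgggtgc
Adh1, chr3:138277335-138277634, plus strand: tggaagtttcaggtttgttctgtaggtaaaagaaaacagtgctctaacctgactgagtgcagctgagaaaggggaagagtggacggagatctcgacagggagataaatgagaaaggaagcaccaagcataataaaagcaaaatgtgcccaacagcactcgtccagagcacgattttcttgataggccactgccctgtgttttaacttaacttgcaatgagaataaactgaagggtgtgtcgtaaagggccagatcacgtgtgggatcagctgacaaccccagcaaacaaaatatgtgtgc
Crabp1, chr9:54764498-54764797, plus strand: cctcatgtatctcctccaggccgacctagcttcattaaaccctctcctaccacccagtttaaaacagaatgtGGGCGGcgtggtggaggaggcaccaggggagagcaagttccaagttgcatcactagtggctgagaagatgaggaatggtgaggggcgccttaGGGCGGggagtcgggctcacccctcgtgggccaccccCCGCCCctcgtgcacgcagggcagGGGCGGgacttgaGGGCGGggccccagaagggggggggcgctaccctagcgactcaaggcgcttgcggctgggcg
The Lrat window held CCAAT at -81 and GGGCGG, read on the other strand, at -45 and 6, counted from the start as 1. The Crabp1 window held 5 copies of GGGCGG, and the Adh1 window held neither motif. Over all 32851 windows, 37.4% held CCAAT and 35.7% held GGGCGG. Windows were found for 7 members, 13 in all, and not for Rdh10, Aldh1a3 and Crabp2. Several starts of 1 gene can share bases, as those of Dhrs3 do. On either strand, 0 of the 13 held AGGTCA, the core site of many nuclear receptors (16.3% of all windows), and 0 held TATAAA (13.6%). The palindromic estrogen response element (0.07% of all windows) and the retinoic acid response elements DR2 and DR5, direct repeats that contain AGGTCA (0.009% each, and 0.472% and 0.323% in relaxed form), were in 0 of the 13 as well. No match says only that these letters are not in the window. GC content was 60.7% for Lrat, 45.3% for Adh1 and 65.0% for Crabp1, with a median of 52.7% over all windows.

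Other genes of retinoid handling were taken from lists by role, 56 genes in all. Of these, 34 remained when the dimmest 30% of genes were left out, while all 10 members remained. A fall in the dim ones is harder to see, so their lack of calls does not set them apart from the members. At 100 pM against vehicle limma called 0 of the 56, where 0.687% of all genes fell and 0.446% rose. With shares so small, 0 calls do not set a list of this size apart from other genes. An unadjusted p below 0.05 was found for 5 (10.9% of all genes). The adjusted analysis of variance passed 0 of the 56 and 1 of all 19938 genes. The median difference of the 56 was 0.01, as against 0.00 over all genes. That of the 10 members, -0.28, is not set against it, because this difference chose them. At 10 pM and between the doses 0 were called as well, with 3 and 7 at an unadjusted p below 0.05 (3.54% and 10.2% of all genes). Of 8 transport and binding genes, differences lay between -0.08 and 0.19, with -0.08 ± 0.06 for the retinol transporter gene Stra6l. Fabp5, a fatty acid binding protein that can carry retinoic acid, differed by 0.19 ± 0.05 between 10 pM and vehicle (adjusted p = 1.0) and by -0.17 ± 0.05 between the doses (adjusted p = 0.257).

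Of 10 genes for retinyl esters and carotenoids, the lipoprotein lipase gene Lpl had the largest difference at 100 pM, 0.37 ± 0.09 (adjusted p = 0.109), with arrays of 6.15, 6.09 and 6.32 all above those in vehicle at 5.98, 5.64 and 5.85. Its 10 pM arrays lay between, at 5.98, 5.99 and 6.01. Of 23 further enzymes that oxidize or reduce retinoids, 13 were lower and 10 higher, with a median of -0.03. Dhrs7, a short-chain dehydrogenase, differed by -0.29 ± 0.08 (adjusted p = 0.174). Its values were 8.17, 8.05 and 8.19 in vehicle and 7.74, 7.76 and 8.04 at 100 pM. Without the third 100 pM array Dhrs7 was called as lower and Rdh1 as higher. Rdh1 was at 5.86, 5.97 and 5.97 in vehicle and 6.27, 6.26 and 5.73 at 100 pM, so the array left out lay below vehicle. Adh5, Adh4 and Adh7, relatives of Adh1, differed by -0.04, -0.04 and -0.03 (adjusted p = 0.79, 0.932 and 0.914). Of these, Adh4 and Adh7 were dim, with vehicle means of 4.80 and 4.50, below the array medians. Rdh16f2 differed by -0.29 ± 0.07 at 10 pM (adjusted p = 1.0) and by -0.04 at 100 pM, and by 0.25 ± 0.07 between the doses (adjusted p = 0.174).

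The 4 genes for retinoic acid breakdown were not called. Cyp26a1, the main retinoic acid hydroxylase and a sensitive retinoic acid target, differed by -0.08 at 100 pM (adjusted p = 0.852), and Cyp26b1 by -0.03 (adjusted p = 0.93), with Cyp2s1 at -0.09. The Cyp26a1 arrays were dim, at 4.81 to 5.29 and below the array medians, so a change could go unseen. Cyp26b1 lay between 6.61 and 6.70 in all vehicle and 100 pM arrays, and the second 10 pM array stood apart at 7.02. Of 11 receptor and coregulator genes, 6 were lower and 5 higher at 100 pM, with differences between -0.16 and 0.12. Rarb, a retinoic acid receptor that retinoic acid induces, was at 9.33, 9.36 and 9.41 in vehicle, 9.35, 9.38 and 9.37 at 10 pM, and 9.25, 9.10 and 9.29 at 100 pM. The 100 pM arrays were all below the rest, but the difference of -0.16 ± 0.05 was not called (adjusted p = 0.283). The coactivator gene Ncoa1 differed by -0.16 ± 0.05 (adjusted p = 0.266). At 10 pM the retinoid X receptor gene Rxrg differed by 0.16 ± 0.08 (adjusted p = 1.0).

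**Figure D3:**
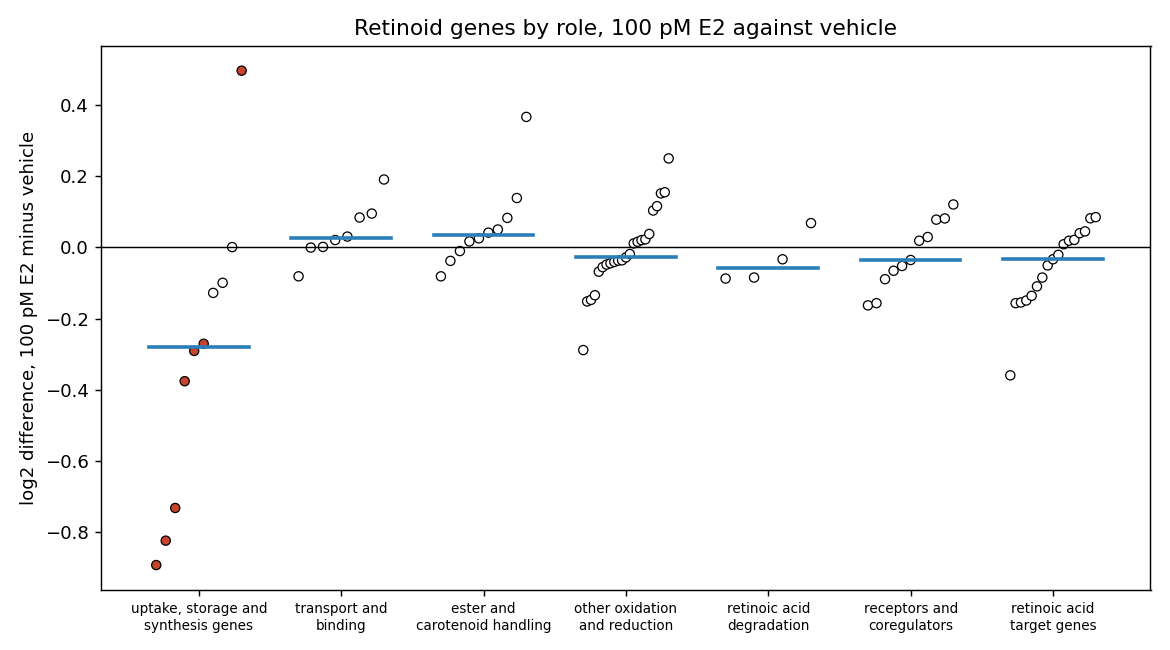
Log2 difference between 100 pM E2 and vehicle for retinoid genes by role. Each point is a gene, filled where limma called it, and horizontal lines are list medians. The median was -0.28 for the 10 genes of uptake, storage and synthesis, which this difference chose. Medians of the other lists lay between -0.06 and 0.03. Rarb, Nrip1, Cyp26a1 and Cyp26b1 appear in 2 lists.

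Among 17 genes known as retinoic acid targets in other settings, limma called 0 at 100 pM against vehicle. Over all genes 0.687% fell and 0.446% rose, so 0 calls do not set these 17 apart. An unadjusted p below 0.05 was found for 6 (10.9% of all genes), and the median was -0.03. The arrays of 4 lay below vehicle without overlap and those of 1 above (5.89% and 6.61% of all genes), namely Rarb, the transglutaminase gene Tgm2 (-0.11), Meis1 (-0.15) and Meis2 (-0.15), which encode homeobox partners, and the nuclear receptor gene Nr2f2 (0.08). Rarres2, the chemerin gene, differed most, by -0.36 ± 0.11 (adjusted p = 0.251), but its vehicle arrays at 6.25, 6.27 and 6.56 overlapped those at 100 pM at 6.25, 5.85 and 5.89. At 10 pM the differences lay between -0.10 and 0.11, with 0 called and 0 at an unadjusted p below 0.05, and the smallest p was that of the homeobox gene Hoxb5 (0.08 ± 0.05, adjusted p = 1.0). Between the doses 0 were called and 5 had an unadjusted p below 0.05 (10.2% of all genes), with -0.17 ± 0.04 for Tgm2 (adjusted p = 0.147).

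The genes whose level followed a member most closely over the 9 arrays were found by Pearson r for Stra6, Lrat and Adh1, whose group means spanned over 0.5 log2 units. Stra6 was followed most closely by Dhrs3 (r = 0.995), itself a member, then by the sulfatase gene Sulf1 and the integrin gene Itga1 (r = 0.991 for both). Lrat was followed by Pdgfra, a receptor of mesenchymal cells (r = 0.991), Itm2a (0.989) and Sema3d (0.988), and Adh1 by Itm2a (0.997), Sema3d (0.997) and Clip4 (0.994). All of these were lower at 100 pM, from -0.27 for Dhrs3 to -0.83 for Itm2a. These r values share the step between the groups. Over deviations from the group means alone, r was 0.927 between Stra6 and Dhrs3, 0.752 between Lrat and Adh1, 0.526 between Stra6 and Lrat, and -0.847 between Adh1 and Crabp1. Adh1 gave 0.761 with Stra6, 0.746 with Dhrs3 and 0.617 with Rdh10, and Stra6 gave 0.688 with Rdh10. Lower values were 0.481 between Stra6 and Aldh1a1, 0.396 between Lrat and Dhrs3 and 0.288 between Adh1 and Aldh1a1. Lrat gave 0.242 with Rdh10 and -0.017 with Aldh1a1. The genes outside the retinoid set named above gave values as high or higher, though likeness over all arrays chose them. With Adh1 these were 0.976 for Clip4, 0.954 for Itm2a and 0.953 for Sema3d. Lrat gave 0.891 with Itm2a, 0.818 with Sema3d and 0.745 with Pdgfra, and Stra6 gave 0.863 with Sulf1 and 0.837 with Itga1. Likeness within groups was thus not particular to the retinoid genes. The second 100 pM array, the lowest of its group for all 6 genes that fell, enters each of these values.

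Markers of other cell types were measured beside these genes. The summed signal of 12 mesenchymal markers, Vim and Col1a1 among them, lay between 98.6% and 100% of the vehicle mean at 100 pM, although Pdgfra (-0.45) and Col3a1 (-0.18) fell. Its main part was Col1a1, Col1a2, Vim and Col3a1, with vehicle means from 12.50 to 13.58, against 9.38 for Pdgfra. The sum therefore says little about the dimmer markers. The sum of 12 macrophage markers was between 96.7% and 107% in vehicle, 89.6% and 103% at 10 pM, and 82.0% and 85.2% at 100 pM. All 12 were lower at 100 pM and 1, C1qb (-0.51), was called, with -0.88 ± 0.23 for Lyz2 (adjusted p = 0.155). The sum of 8 mesothelial markers was 86.6% to 93.2% at 100 pM against 97.9% to 101% in vehicle, but 2 of the 8 were lower and 6 higher, with a median difference of 0.04. Wt1, the main part of that sum, differed by -0.31 (adjusted p = 0.0921) and Upk1b by 0.22, and 0 of the 8 were called. Epithelial markers, 13 in number, came to 105% to 110%, with 3 lower, 10 higher, a median difference of 0.07 and 0 called. Krt18 differed most, by 0.43 (adjusted p = 0.112), and was called between the doses (0.57). The 4 glial markers came to 106% to 113%. Endothelial markers, 10 in number, came to 95.5% to 98.8%, although Kdr (-0.98) fell and Emcn (0.82) rose, and 8 smooth muscle markers to 98.9% to 103%. No marker is listed at 0, the table holds no detection calls, and the part of these cell types in the retinoid gene values was not tested.

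**Figure D4:**
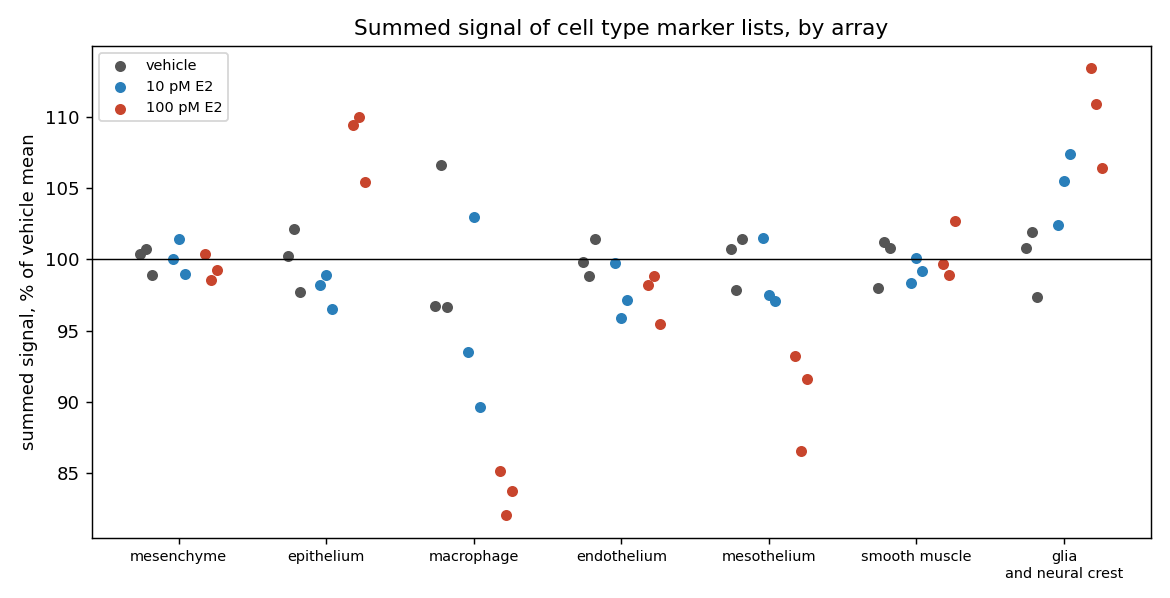
Summed linear signal of 7 lists of cell type markers in each array, in percent of the vehicle mean, with vehicle in grey, 10 pM E2 in blue and 100 pM E2 in red. Macrophage markers at 100 pM lay between 82.0% and 85.2%, below all other arrays. The mesenchymal sum, made up mainly of Col1a1, Col1a2, Vim and Col3a1, stayed between 98.6% and 101% in all 9 arrays. The vertical axis does not start at 0.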

How the data were processed

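Expression in fetal mouse prostate mesenchymal cells was measured on Affymetrix Mouse Gene 1.0 ST arrays. The authors turned array scans into tables with GCOS and Affymetrix Gene Expression Console and deposited 1 log2 value per probeset. Versions and the summarization method are not given in the sources used here, and that the scale is log2 was read from the range of the values. Groups and replicate numbers came from the sample titles. Of 35556 probesets, 21789 had 1 gene symbol, 1621 several (not named) and 12146 none in an annotation of the platform that can be old. Entrez identifiers of 21698 matched the RefSeq gene table. The probeset of highest mean was used for the 999 genes with over 1, with no filter on dim values. Group means were estimated from the 9 arrays together by lmFit and eBayes of limma 3.58.1 (R 4.3.3), with two-sided tests, Benjamini-Hochberg adjustment over 19938 genes and a threshold of 0.05. The procedure was tested on simulated data. The number of arrays limits the precision.

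The members, the gene lists and the tests were chosen with earlier results of these data known. Besides the 10 members and the treatment checks Pgr and Esr1, the rule for named genes took from each retinoid list and comparison up to 4 called genes of largest change, or else the gene of smallest p, with Cyp26a1, Cyp26b1 and Rarb always, and the 3 genes most like a member. Genes with arrays that did not overlap, Rdh1, Col3a1, C1qb, Lyz2, Wt1, Upk1b, Krt18, Kdr and Emcn were named after their values were seen, and relatives of Adh1 and Aldh1a1 were named as near copies. Some listed genes and markers are not reported here. Alternatives were to centre arrays on their median, to normalize by quantiles, to drop the dimmest 30% of genes, to test all probesets or their mean per gene, to use a trended robust prior, to weight arrays, to block on replicate number, to fit the compared groups alone, to use the one-way analysis of variance of the study with and without adjustment, to call at an adjusted p below 0.10, and to leave out arrays singly. Promoter windows came from RefSeq (GRCm38.p6), and a gene with several annotated starts has several windows. Figures were drawn with matplotlib 3.10.9.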

Additional observations from a re-analysis of the deposited data

How the results depend on the processing

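Of the 7 calls at 100 pM against vehicle, all 7 held after array centring, quantile normalization, leaving out dim genes, trend and robust, and array weights. They also held on averaging probesets, which does not alter the values of members with 1 probeset. At an adjusted p below 0.10 they hold by definition. The same 7 genes had an unadjusted p below 0.01 in the analysis of variance, which tests the 3 groups together and not this comparison. With all probesets tested 5 held. None (0) held when only the compared groups were fitted or in the Benjamini-Hochberg adjusted analysis of variance, and leaving out 1 array gave 4 to 7. Over all genes, leaving out 1 array gave 40 to 116 calls as higher and 48 to 143 as lower, against 89 and 137. Between the doses the 5 calls became 3 with all probesets and 1 (Lrat) with only the compared groups. That fit called no other gene of the 19938. They became 0 in the adjusted analysis of variance, and 3 to 5 without 1 array. The 5 calls became 7, with Aldh1a1 and Crabp1 added, when dim genes were left out, with trend and robust, and at an adjusted p below 0.10. With array weights they became 6, where Aldh1a1 was added. At 10 pM no alternative called a member. The analysis of variance tests the 3 groups together, so it gave no value there, and its counts do not test the other comparisons singly. Among the 56 other retinoid genes, leaving out 1 array gave 0 to 2 calls at 100 pM against vehicle and 0 to 2 between the doses. Among the 17 target genes it gave 0 to 1 at 100 pM against vehicle, and the analysis of variance over all groups at an unadjusted p below 0.01 gave 1, Tgm2. The cause of these shifts was not tested.

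No called difference changed sign. Differences near 0 did. That of Aldh1a2 at 100 pM against vehicle was -0.01 (-0.0147) with quantile normalization and -0.0009 with array weights, and ran from -0.0139 to 0.0094 without 1 array. At 10 pM, leaving out 1 array gave -0.0176 to 0.1181 for Lrat, -0.0803 to 0.0182 for Adh1, -0.0169 to 0.0056 for Dhrs3, -0.0612 to 0.0001 for Aldh1a1 and -0.0412 to 0.024 for Crabp2, and between the doses -0.1032 to 0.0185 for Aldh1a3. With the replicate block, 5 and 4 calls remained at 100 pM against vehicle and between the doses. Deviations of same-numbered arrays correlated with r between -0.112 and 0.200, and those of differently numbered arrays with r between -0.189 and 0.168. Such values cannot show whether same-numbered arrays shared a preparation, and the sources used here do not say.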

Other observations

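In the deposited table, 72.7% of the 19938 genes had a value that recurred to the last digit in at least 2 of the 9 arrays, and 48.4% had one within a group. Among the 10 retinoid genes this held for Lrat (6.79 in the first vehicle and the third 10 pM array) and for Crabp2 (10.59 in the first and the second vehicle array). What they do to the spread of a gene was not tested. How they arose is not given in the sources used here.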
